A study of Homo sapiens with 4 samples.

Results

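The 10 integrin subunits examined here were the α chain genes ITGA2, ITGA3, ITGA4, ITGA5, ITGA6 and ITGAV and the β chain genes ITGB1, ITGB3, ITGB5 and ITGB8. They were taken as a named list out of 26 integrin subunit genes and 46660 gene identifiers in the expression table. The rule for the list uses no measured value, but the list was chosen with earlier results of these data known. Integrins are cell surface receptors in which 1 α chain pairs with 1 β chain, and the pair decides which extracellular ligand is held. The β1 chain pairs with many α chains and serves as a receptor chain for laminin, collagen and fibronectin, whereas αV pairs with several β chains and binds proteins that carry an Arg-Gly-Asp motif. Inside the cell the β tails bind talin and kindlin and so join the matrix to actin, and in glioblastoma integrins are known for their part in adhesion to, and migration through, brain matrix.

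The RNA-seq data came from U87MG and U251MG, both established human glioblastoma cell lines. In each line, control cells, titled shControl, had received pGreen lentivirus that the treatment label calls an empty vector, and shFLI1 cells had received lentivirus carrying shRNA against FLI1, an ETS family transcription factor. The series names 2 such shRNAs, and the labels do not say whether 1 or both were in the shFLI1 libraries. All 4 groups therefore shared lentiviral infection and puromycin selection, and each was a mixed population of stable cells rather than a clone. The question was how far the integrin subunits differed between the lines, and after FLI1 knockdown.

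There was 1 library per group, with 12229780 counts in U87MG control, 21250153 in U87MG shFLI1, 18108612 in U251MG control and 28891055 in U251MG shFLI1. Depth was therefore greater after knockdown, 1.74 times the control in U87MG and 1.60 times in U251MG. FLI1 itself had 9.34 CPM, the count scaled to the TMM-adjusted library size, in U87MG control and 2.34 in U87MG shFLI1, against 12.1 in U251MG control and 3.71 in U251MG shFLI1. This lower FLI1 level in both shFLI1 libraries matched their labels. The glial markers VIM, NES, SOX2, CD44 and GFAP each had 364 counts or more in every library, whereas OLIG2 and AQP4 had 0 to 7, S100B 1 to 11 and CHI3L1 0 to 15. GFAP, an astrocyte filament protein, was 30.9-fold higher in U87MG control than in U251MG control and was called higher after knockdown in both lines (log2 1.32 in U87MG and 2.19 in U251MG). Markers of immune cells summed to 0.729 to 1.20 CPM, of endothelium to 0.841 to 5.68 CPM and of epithelium to 0.27 CPM at most, and PECAM1 had 0 to 3 counts. The immune markers AIF1 and CD3E and the epithelial marker EPCAM had no entry in the expression data, so these sums leave them out. The endothelial cadherin CDH5 had 51 and 50 counts in U87MG control and shFLI1 and 6 and 10 in U251MG, called higher in U87MG control (log2 3.39). The part of these markers in the integrin results was not tested. In bulk RNA, fewer cells expressing a gene and less of its RNA per cell cannot be told apart.

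Every subunit was well counted, from 485 to 33368 counts per library, and together they took 0.175% to 0.279% of all counts. The levels of the subunits were set beside each other on the FPKM scale, which is per transcript length. FPKM summed by gene need not follow the counts. In U87MG control ITGAX, an integrin gene outside the 10, had 20.6 FPKM from 4 counts, while ITGB5 had 20.4 FPKM from 780. The ITGA4 change after knockdown in U87MG was -0.42 on the log2 scale by TMM-scaled counts, -0.26 by counts scaled to their total and -0.04 by FPKM. Ranks and ratios on this scale carry that limit. ITGA3, the α chain of a laminin receptor, had the highest level of the 10 in every library. It had 133 FPKM in U87MG control, 179 in U87MG shFLI1, 283 in U251MG control and 253 in U251MG shFLI1. ITGB1, the common β chain, came second of the 10 in every library, with 111, 147, 119 and 166 FPKM in the same order. The ranges of these genes over the 4 libraries overlapped, while the lowest ITGB1 value lay above the highest value of every subunit that followed.

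A middle group held ITGA5, ITGAV, ITGB8 and ITGB5, with means over the 4 libraries of 41.0, 36.6, 31.2 and 28.1 FPKM. ITGA5 is the α chain of the classical fibronectin receptor, and ITGAV forms vitronectin and fibronectin receptors with β3 and β5 and receptors of latent TGF-β with β8. The ranges of neighbours within this group overlapped, so that their order was not resolved by these libraries. ITGA6, a laminin receptor chain, lay below them at 9.21 to 16.8 FPKM. ITGA2, the α chain of a collagen receptor, ITGA4, which with β1 binds VCAM-1 and fibronectin, and ITGB3, a partner of αV, were lowest with means of 7.36, 6.79 and 6.74 FPKM, and their ranges overlapped.

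**Figure D1:**
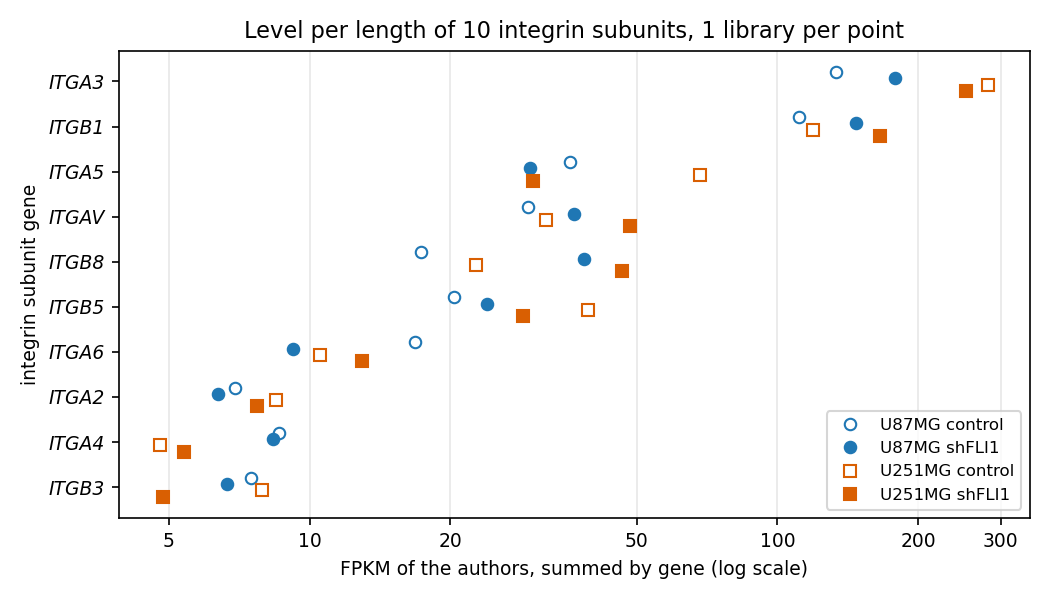
Level of each integrin subunit in FPKM (log scale, as computed by the authors and summed by gene), 1 point per library, with circles for U87MG, squares for U251MG, open symbols for control and filled symbols for shFLI1. ITGA3 and ITGB1 lie above 100 FPKM in every library, while both filled ITGB8 symbols, at 38.5 and 46.5 FPKM, lie to the right of both open ones, at 17.3 and 22.7 FPKM.

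The order changed within the middle group after knockdown. ITGB8 stood at rank 6 of the 10 subunits in both controls and at rank 3 in U87MG shFLI1 and rank 4 in U251MG shFLI1. ITGA5 stood at rank 3 in both controls and at rank 5 in both shFLI1 libraries. The FPKM ratio of ITGA5 to ITGAV was 1.23 before and 0.808 after knockdown in U87MG, and 2.13 before and 0.621 after in U251MG. Among the β partners of αV, the FPKM ratio of ITGB8 to ITGB5 was 0.848 and 1.61 in U87MG control and shFLI1, and 0.577 and 1.63 in U251MG. Both ratios thus lay on opposite sides of equality in control and shFLI1 cells of either line.

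In the control cells ITGA3, ITGB5 and ITGA5 were higher in U251MG, and ITGA4 and ITGA6 were higher in U87MG, each by less than 2-fold. With 1 library per arm these differences have no replicate check. The 95% intervals given are Clopper-Pearson intervals of the counts, which cover counting error only. PCR reads are not independent molecules, so even that error may be larger than the intervals show. A difference was called where it exceeded 2-fold and the interval excluded no difference. By this rule 0 of the 10 subunits were called between the lines, against 15.1% of all 16391 genes tested, and against 3.75% of the 4714 genes that had at least 485 counts in every library, as the subunits did. The median log2 difference (U87MG minus U251MG) was -0.14 for the subunits and -0.11 for all genes.

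ITGA3 was just inside the threshold, with 655 CPM in U87MG control and 1305 in U251MG control, 1.99-fold higher in U251MG (log2 difference, U87MG minus U251MG, -0.99, interval -1.03 to -0.96). ITGA5 was 1.76-fold higher in U251MG control, with 269 CPM against 153. ITGB5, which with αV forms a vitronectin receptor, was 1.82-fold higher in U251MG control, with 124 CPM against 68.1. These 3 genes were the subunits with the lowest U87MG level relative to U251MG.

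The opposite direction was seen for ITGA4 and ITGA6. ITGA4 had 51.9 CPM in U87MG control and 27.2 in U251MG control, a 1.90-fold difference with a log2 interval of 0.76 to 1.11. ITGA6 had 94.4 CPM in U87MG control and 55.9 in U251MG control, a 1.69-fold difference. For ITGAV, ITGB1 and ITGB3 the interval included no difference, with log2 values of -0.06, -0.03 and -0.04. ITGA2 and ITGB8 were slightly lower in U87MG control, by log2 values of -0.23 and -0.33 with intervals that excluded 0. With the trend over transcript GC content and length removed these values were -0.03 and -0.06.

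When both arms of each line entered 1 model (edgeR's quasi-likelihood test with Benjamini-Hochberg adjustment over 16649 genes), 2 of the 10 subunits passed an adjusted p of 0.05 for the cell line, against 18.6% of all genes tested (8.25% higher and 10.4% lower in U87MG). Fitted to genes with at least 100 counts in every library, 2 of the 10 and 2139 of 9772 genes passed. In this model the control and shFLI1 arms of a line, which were different treatments, served as its replicates. ITGA4 was higher in U87MG by 0.69 on the log2 scale (edgeR quasi-likelihood test, Benjamini-Hochberg adjusted p = 0.0303). Its 4 values were 51.9 and 38.8 CPM in U87MG control and shFLI1 and 27.2 and 31.2 CPM in U251MG, so both U87MG values lay above both U251MG values. ITGA3 was lower in U87MG by the same edgeR quasi-likelihood test, with a log2 value of -0.68 and an adjusted p of 0.0463 after Benjamini-Hochberg adjustment. Its values were 655 and 779 CPM in U87MG control and shFLI1 and 1305 and 1114 CPM in U251MG, again without overlap of the lines. Neither call held in the model without the arm as a block or with limma on FPKM, in which 0 subunits were called. The ITGA4 call was also lost with DESeq2 (adjusted p = 0.0578) and with total counts in edgeR's quasi-likelihood test (0.0579), and the ITGA3 call with the GC and length trend removed (0.0778). The other 8 subunits had adjusted p from 0.0736 (ITGB5) to 0.937 (ITGB1) in edgeR's quasi-likelihood test, and their line effects are drawn beside the control differences.

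**Figure D2:**
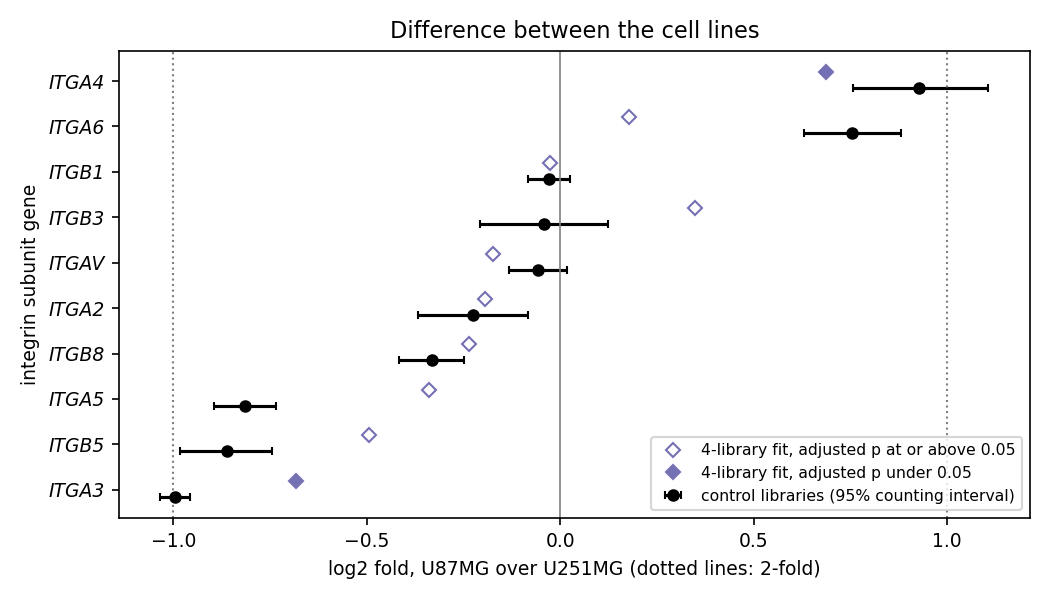
Log2 fold of U87MG over U251MG for each subunit, as the ratio of the control libraries with its 95% counting interval (black) and as the cell line effect over all 4 libraries (diamonds, filled where the adjusted p of edgeR's quasi-likelihood test was under 0.05). ITGA4 at 0.93 and ITGA3 at -0.99 are the extremes in the control libraries and carry the filled diamonds at 0.69 and -0.68.

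The genes whose pattern over the 4 libraries lay nearest to ITGA3, the subunit with the largest control difference, were LGMN, a lysosomal cysteine protease, DCBLD2, a transmembrane receptor, and TSHZ2, a zinc finger protein. Their root mean square distances from ITGA3 in centred log2 CPM were 0.0221, 0.0273 and 0.0277 among 9771 genes with at least 100 counts in every library. DCBLD2 had 575, 682, 1189 and 965 CPM in U87MG control, U87MG shFLI1, U251MG control and U251MG shFLI1. With 4 points per gene, this likeness is a description of these libraries.

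After FLI1 knockdown, ITGB8 was higher and ITGA5 was lower in both lines, and ITGA3, ITGA4, ITGA6 and ITGB5 had opposite signs in the lines. ITGB8, whose pairing with αV binds latent TGF-β, had 150 CPM in U87MG control and 298 in U87MG shFLI1, and 189 CPM in U251MG control and 362 in U251MG shFLI1. Both shFLI1 values lay above both control values. ITGB8 was 1.99-fold higher in U87MG (log2 interval 0.91 to 1.07) and 1.92-fold higher in U251MG (0.88 to 1.00), just inside the 2-fold threshold in both lines. In the 4-library model that blocked on the line, ITGB8 rose by 0.95 on the log2 scale (edgeR quasi-likelihood test, Benjamini-Hochberg adjusted p = 0.0142). It was the 1 subunit of 10 that passed, against 3.06% of the 16649 genes tested, or 0.919% counted for higher genes alone. Fitted to genes with at least 100 counts in every library, 2 of the 10 and 504 of 9772 genes passed, 180 of the 504 being higher. DESeq2 gave ITGB8 the same call, whereas the model without the cell line block (adjusted p = 0.772) and limma on FPKM (adjusted p = 0.119) did not, and each called 0 genes of all tested, against 509 in the model with the block. At an unadjusted p under 0.05 the model without the block had 725 genes and limma had 2155.

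ITGB8 counts were split over 22 RNAs, 11 of which had at least 100 counts over the libraries. The leading RNA, NM_002214, had 63.3 and 125 CPM in U87MG control and shFLI1 and 65.4 and 132 CPM in U251MG, log2 changes of 0.99 and 1.01. The next, XM_017012180, changed by 1.51 and 0.50 on the log2 scale in U87MG and U251MG, and XM_017012178 by 0.85 and 1.15. All 3 were thus higher after knockdown in both lines, although counts split between RNAs of 1 gene are estimates. The nearest patterns to ITGB8 were those of DICER1, which cuts microRNA precursors, KIF3A, a kinesin motor subunit, and BRWD1, a bromodomain protein, at distances of 0.0619, 0.0651 and 0.0684. DICER1 had 42.2 and 93.2 CPM in U87MG control and shFLI1 and 57.0 and 103 CPM in U251MG.

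ITGA5 had the most negative log2 change of the subunits in U251MG. It had 153 CPM in U87MG control and 112 in U87MG shFLI1, and 269 CPM in U251MG control and 113 in U251MG shFLI1. Both shFLI1 values lay below both control values, and the shFLI1 libraries of the lines were alike in ITGA5 although their controls differed. ITGA5 was 2.38-fold lower in U251MG (log2 -1.25, interval -1.32 to -1.19), the 1 subunit of 10 called in that line, against 8.17% of 18222 genes tested there (4.0% lower) and 2.21% of those with at least 485 counts in every library. In U87MG it was 1.36-fold lower (log2 -0.45, interval -0.53 to -0.36). Over the 4 libraries the ITGA5 change was -0.87 on the log2 scale and missed the threshold (edgeR quasi-likelihood test, Benjamini-Hochberg adjusted p = 0.0547), while DESeq2 called it (adjusted p = 0.00625).

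ITGA6 gave the largest contrast between the lines. It had 94.4 CPM in U87MG control and 45.8 in U87MG shFLI1, and 55.9 CPM in U251MG control and 66.4 in U251MG shFLI1. The U87MG control library stood above the other 3. ITGA6 was 2.06-fold lower in U87MG (log2 -1.04, interval -1.17 to -0.92), the 1 subunit of 10 called there, against 11.4% of 17355 genes tested (4.19% lower) and 2.14% of those with at least 485 counts in every library. The call was lost with total counts in place of TMM (log2 -0.88) and on FPKM with a pseudocount of 1 (-0.80) or 0.1 (-0.86). In U251MG the ITGA6 log2 change was 0.25 with an interval of 0.14 to 0.36.

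The leading RNAs of ITGA6 were NM_001079818 and NM_000210, which differ in the exon that sets the cytoplasmic tail. The former had 48.5 and 23.9 CPM in U87MG control and shFLI1 and 26.2 and 36.7 CPM in U251MG. The latter had 38.4 and 13.3 CPM in U87MG control and shFLI1 and 23.2 and 23.1 CPM in U251MG. Both were lower after knockdown in U87MG, and the higher gene total in U251MG shFLI1 came with the former and not with the latter.

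ITGA5 and ITGA6 were the subunits past 2-fold in a line, and their proximal promoter sequences are shown because FLI1, as an ETS factor, binds DNA around a GGAA core. The 250 bases upstream of the RefSeq start (GRCh38.p14) are given 5′ to 3′ on the gene's strand, at chr12:54419267-54419516 (minus strand) for ITGA5 and chr2:172427086-172427335 (plus strand) for ITGA6, with each GGAA, or TTCC on the other strand, in capitals.
ITGA5: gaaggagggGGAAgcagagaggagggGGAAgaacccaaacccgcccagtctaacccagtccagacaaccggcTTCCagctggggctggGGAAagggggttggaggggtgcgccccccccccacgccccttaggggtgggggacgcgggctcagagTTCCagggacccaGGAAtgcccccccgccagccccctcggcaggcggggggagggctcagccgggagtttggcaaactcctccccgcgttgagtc
ITGA6: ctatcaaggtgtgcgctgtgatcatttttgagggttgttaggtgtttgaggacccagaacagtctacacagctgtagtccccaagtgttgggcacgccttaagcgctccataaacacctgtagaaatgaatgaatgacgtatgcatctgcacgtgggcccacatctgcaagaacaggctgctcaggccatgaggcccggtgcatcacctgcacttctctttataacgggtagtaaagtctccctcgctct
The ITGA5 window held 6 such cores, more than 90.7% of 27305 RefSeq windows of the same length, and the ITGA6 window held 0. Windows were found for 8 of the 10 subunits, ITGA3 and ITGB3 being the others. The GGAA core was in 7 of the 8 and in 92.8% of all windows, and the ITGB8 window held 1. The longer CCGGAA was in the ITGB1 and ITGB5 windows and in 14.8% of all windows, and ACCGGAAG in 0 of the 8 and in 1.89% of all windows (both strands searched, the longer motifs containing the shorter). A match of letters is a description and does not show binding.

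The common chains ITGB1 and ITGAV were higher after knockdown in both lines, by less than 1.5-fold. ITGB1 had 397 and 476 CPM in U87MG control and shFLI1 and 405 and 534 CPM in U251MG, log2 changes of 0.26 and 0.40. ITGAV had 206 and 224 CPM in U87MG and 215 and 302 CPM in U251MG, log2 changes of 0.12 and 0.49. For both genes the shFLI1 values lay above both controls, yet the change over the 4 libraries did not pass (edgeR quasi-likelihood test, Benjamini-Hochberg adjusted p = 0.396 for ITGB1 and 0.423 for ITGAV). With the trend over transcript GC content and length removed, ITGAV in U87MG turned to -0.11.

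ITGA2 and ITGB3 were lower after knockdown in both lines. ITGB3 had 42.4 and 36.2 CPM in U87MG control and shFLI1 and 43.6 and 24.1 CPM in U251MG, log2 changes of -0.23 and -0.85, the second being 1.80-fold lower. ITGA2 had 55.4 and 45.1 CPM in U87MG and 64.7 and 55.7 CPM in U251MG, log2 changes of -0.30 and -0.22. ITGB3 was thus nearly alike in the controls and lower in U251MG shFLI1 than in the other libraries. Neither passed over the 4 libraries (edgeR quasi-likelihood test, Benjamini-Hochberg adjusted p = 0.154 for ITGB3 and 0.379 for ITGA2).

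ITGA3, ITGA4 and ITGB5 had opposite signs in the lines, as ITGA6 did. ITGA3 was higher after knockdown in U87MG, from 655 to 779 CPM, and lower in U251MG, from 1305 to 1114 CPM, so the lines lay closer together after knockdown. ITGA4 was lower in U87MG shFLI1, at 38.8 CPM against 51.9, and higher in U251MG shFLI1, at 31.2 CPM against 27.2, and here too the lines lay closer together. ITGB5 had 68.1 and 71.1 CPM in U87MG control and shFLI1, with an interval that included no change, and 123.9 and 85.9 CPM in U251MG, 1.44-fold lower.

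Altogether 6 of the 10 subunits moved the same way in both lines with both counting intervals excluding no change, against 24.1% of all genes and 40.5% of those with at least 485 counts in every library. Opposite signs were seen in 4 of the 10, against 36.5% of all genes and 35.5% of the 4714 counted as deeply. With both intervals excluding no change this was 3 of the 10, against 7.29% and 14.9%. The median log2 change of the subunits was -0.08 in U87MG and -0.01 in U251MG, beside 0.06 and 0.04 for all genes.

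**Figure D3:**
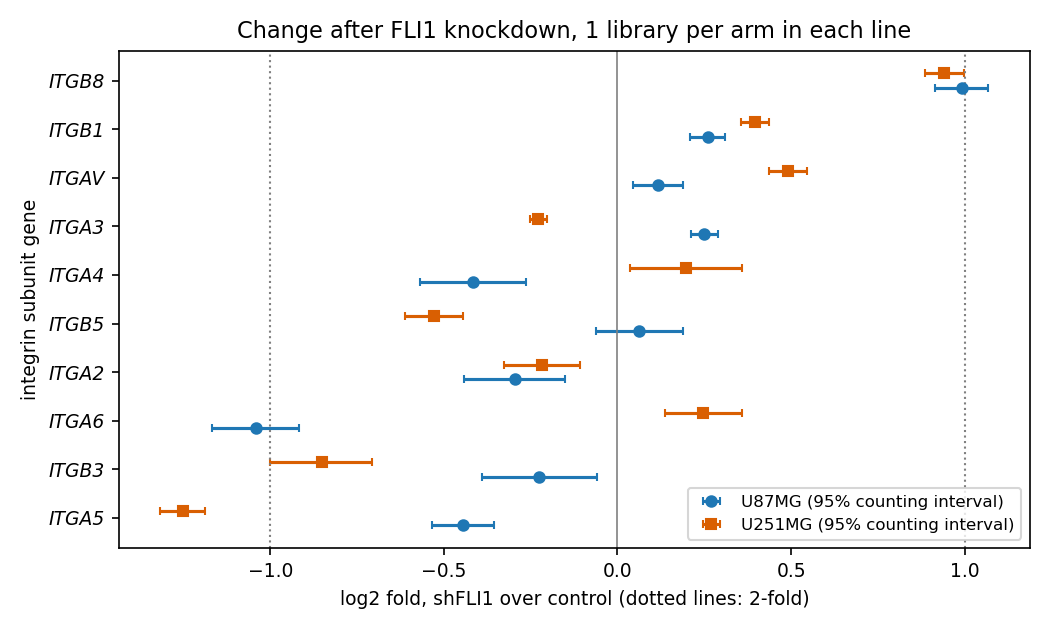
Log2 fold of shFLI1 over control for each subunit in U87MG (circles) and U251MG (squares), with 95% counting intervals and dotted lines at 2-fold. ITGB8 sits at 0.99 and 0.94 in the lines, ITGA6 at -1.04 and 0.25, and ITGA5 at -0.45 and -1.25.

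GC content was set beside these changes, without a test of association. The median GC content of the annotated transcripts was 38.2% for ITGAV, 39.0% for ITGB8, 39.1% for ITGA4 and 40.0% for ITGB1, and the 3 subunits higher in both lines were among these 4. ITGA4, the other of these, was lower in U87MG. GC content was 42.4% for ITGA6 and 42.9% for ITGA2, which was lower in both lines, and 50.4% for ITGB3. It was 55.5% for ITGB5, 56.0% for ITGA5 and 59.2% for ITGA3, which was higher in U87MG. With the trend over GC content and length removed from each library, a step chosen after the data were seen, the knockdown change of ITGB8 was 0.83 on the log2 scale and that of ITGA5 was -0.77, and both passed (edgeR quasi-likelihood test with the block, Benjamini-Hochberg adjusted p = 0.00769 and 0.0354). ITGB8 was then 0.82 in U87MG and 0.84 in U251MG. The correction took the median GC content and length over all annotated transcripts of a gene. For ITGA5 that length was 588 bases, while 1 RNA, NM_002205, held 94.69% to 99.94% of the counts. The GC content and length used need therefore not be those of the RNA counted.

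**Figure D4:**
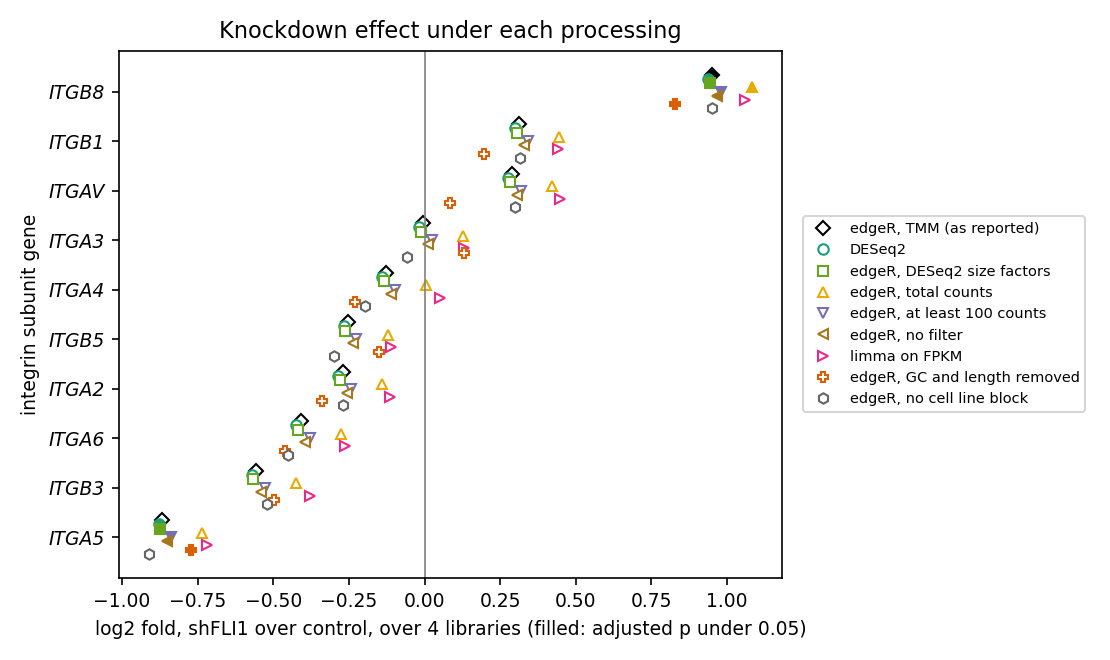
Log2 knockdown effect over the 4 libraries for each subunit under 9 ways of processing, each with its own symbol, filled where the adjusted p was under 0.05. ITGB8 lies between 0.83 and 1.08 and ITGA5 between -0.91 and -0.72, whereas the symbols of ITGA3 and ITGA4 fall on both sides of 0.

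Of the other 16 integrin genes, 14 were in the table and 5 had at least 10 counts in every library. ITGB4, the β partner of α6, had 170, 170, 128 and 171 FPKM in U87MG control, U87MG shFLI1, U251MG control and U251MG shFLI1. This was above ITGB1 in every library and above ITGA3 in U87MG control. Its log2 change after knockdown was -0.16 in U87MG and 0.34 in U251MG, the same pair of signs as ITGA6. ITGA1, the α chain of a collagen receptor, had log2 changes of -0.61 and -0.99, and ITGA7, of a laminin receptor, -0.26 and -0.67. ITGA9, whose pairing with β1 binds tenascin, was higher in U87MG control by 2.45 on the log2 scale at 40 counts against 10, and ITGAE had 154 to 453 counts. For the knockdown over the 4 libraries 0 of the 6 tested were called, against 3.06% of all genes (edgeR quasi-likelihood test with Benjamini-Hochberg adjustment). Within the lines, 0 of 5 were called in U87MG and 1 of 9 in U251MG, against 11.4% and 8.17% of all genes. That gene was ITGA11, a collagen receptor chain, at 28 counts in U251MG control and 11 in U251MG shFLI1 (log2 -1.84), and with 1 count in U87MG control it was also called between the controls.

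Genes of the intracellular adhesion machinery were taken as a list. Of 32 genes for talins, kindlins, FAK, paxillin and other partners of integrin tails, 28 were tested in U87MG and 29 in U251MG. The 1 called after knockdown was TNS2, a tensin, lower in U87MG (log2 -1.04), against 11.4% of all genes in U87MG and 8.17% in U251MG. Among genes with at least 485 counts in every library these shares were 2.14% and 2.21%. The list held genes on both sides of that depth, TNS2 being below it. Over the 4 libraries 0 of 28 passed for knockdown, against 3.06% of all genes (edgeR quasi-likelihood test with Benjamini-Hochberg adjustment). For the cell line 5 were higher and 2 lower in U87MG of 28, against 18.6% of all genes. SRC, the kinase that acts with FAK, was the 1 gene of the 28 tested that was called in the controls. The share was 15.1% of all genes and 3.75% of those with at least 485 counts in every library, a depth SRC did not reach in U87MG control. SRC was lower in U87MG (log2 -1.19).

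Of 36 genes for integrin ligands and related proteins, 29 were tested in the controls, and 8 were lower and 2 higher in U87MG, against 15.1% of all genes. The largest differences (U87MG minus U251MG) were those of L1CAM, a neural adhesion molecule that binds αVβ3 and α5β1, at -3.79, COL1A1 at -2.73, TGFB2 at -1.89, EDIL3, an Arg-Gly-Asp protein bound by αV integrins, at -1.81 and LAMA2 at -1.71. After knockdown 2 were called higher and 2 lower of 27 tested in U87MG, against 11.4% of all genes. In U251MG 1 was called higher and 2 lower of 29 tested, against 8.17%. L1CAM was the 1 gene of this list called in the same direction in both lines, a share not counted over all genes. It had 6.64 and 0.719 CPM in U87MG control and shFLI1, from only 76 and 16 counts, a log2 change of -3.04. In U251MG control and shFLI1 it had 92.7 and 44.9 CPM, a log2 change of -1.04. TGFB2, whose product is held latent in the matrix, and L1CAM were the 2 of 28 tested genes of this list called over the 4 libraries, both lower. The share of all genes was 3.06% (edgeR quasi-likelihood test, Benjamini-Hochberg adjusted p = 0.0260 for TGFB2 and 0.0495 for L1CAM). TGFB1 and TGFB3 were not called, at log2 changes of 0.05 and -0.19 over the 4 libraries. Binding of the TGFB2 product by integrins was not tested.

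Genes on the opposite strand overlap exons of ITGA4, ITGA5, ITGA6, ITGAV, ITGB1 and ITGB8 in GENCODE v44, and the strand setting of the counting is not given in the sources used here. Where such partners were listed in the table by name, CERKL, GPR84-AS1, ITGA6-AS1, ITGB1-DT and ITGB8-AS1, they had at most 61 counts in any library, far below the subunits they overlap. Counts of partners without a gene name, among them the only partner of ITGAV, were not examined. Exons of ITGB3 overlap a protein-coding gene without a name on the same strand, whose counts were not examined either.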

How the data were processed

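RNA-seq of control and shFLI1 cells of U87MG and U251MG was analysed, 1 library per group. Per the labels and the study's methods, HISAT2 served for alignment (GRCh38) and StringTie for the FPKM values the authors deposited. The deposited estimated counts are not normalized, and the tool behind them is not given in the sources used here. Labels and methods name different mRNA library kits. A further 10 value columns (TPM and means) were not used. Linear RNA counts were summed by Entrez gene and rounded. Totals ranged from 12229780 to 28891055. Within a line, TMM-scaled ratios with a prior count of 2 were compared for genes with at least 10 counts in 1 library. Over all 4 libraries, edgeR 4.0.16 (R 4.3.3) was fitted with line and arm as terms, leaving 1 residual degree of freedom. P-values for the knockdown therefore treat the lines as replicates. Those for the cell line treat the control and shFLI1 arms as replicates. No term allowed the knockdown change to differ between the lines. Alternatives used DESeq2 1.42.0, limma 3.58.1 on log2(FPKM + 1), other scalings, filters, a 1.5-fold threshold and a GC and length correction. Fits were tested on simulated data. Named genes were all subunits, other integrins with 10 or more counts in every library, and called or most different genes of the adhesion and ligand lists. The subunits and lists were chosen with earlier results of these data known. Promoter windows are from RefSeq, and overlaps from GENCODE v44.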

Additional observations from a re-analysis of the deposited data

Results flagged for a closer look

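Knockdown changes of opposite sign in the lines drew attention for 4 subunits. With 1 library per arm the difference between the lines was not tested, and the intervals cover counting error only. The change in U87MG minus that in U251MG, on the log2 scale, was -1.29 for ITGA6 (interval -1.45 to -1.12). It was -0.61 for ITGA4 (interval -0.83 to -0.39). It was 0.48 for ITGA3 (interval 0.43 to 0.53) and 0.59 for ITGB5 (interval 0.44 to 0.74), whose change in U87MG had an interval that included 0.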

How the results depend on the processing

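Each group had 1 library, so no library could be left out within a group, and the labels give no replicate numbers, the cell line or arm serving as the block. In the controls 0 subunits were called, against 1 by total counts (ITGA3), 1 by FPKM with a pseudocount of 1 or 0.1, 1 with GC and length removed (ITGA4) and 5 at 1.5-fold, while genes called went from 2476 to 1050 at 100 counts, 4545 at 1.5-fold and 1269 by FPKM. In U87MG 1 subunit became 2 at 1.5-fold, and by total counts (1.15) and by FPKM with a pseudocount of 1 (1.11) or 0.1 (1.15) the 1 was ITGB8 in place of ITGA6; genes called went from 1979 to 555 at 100 counts, 3529 at 1.5-fold, 830 by FPKM and 1045 with GC and length removed. In U251MG 1 subunit became 2 by total counts and by FPKM at either pseudocount and 3 at 1.5-fold; genes went from 1488 to 400, 2810, 538 and 766 under the same 4 settings. For the cell line 2 subunits became 1 with DESeq2 and by total counts and 0 without the block and with limma, 3 with no filter (ITGB5 added) and 2 with GC and length removed (ITGB3 in place of ITGA3), and 3100 genes became 1813, 531 and 670 with DESeq2, without the block and with limma. For the knockdown 1 subunit became 2 with DESeq2, DESeq2 size factors, at least 100 counts, no filter and GC and length removed, and 0 without the replicate block and with limma, and 509 genes became 1303 with no filter and 0 without the block and with limma. The second subunit under those settings was ITGA5. Signs turned for ITGA3 knockdown to 0.13 by total counts, 0.024 at 100 counts, 0.011 with no filter, 0.13 with limma and 0.13 with GC and length removed, for ITGA4 knockdown to 0.006 by total counts and 0.05 with limma, and with GC and length removed for the line effects of ITGAV (0.12), ITGB1 (0.22) and ITGB8 (0.023). Total counts in place of TMM moved the median of all genes in U87MG from 0.06 to 0.22, with 1709 genes higher and 571 lower past 2-fold against 1252 and 727. The control differences of ITGAV, ITGB1 and ITGB3 turned to 0.005, 0.034 and 0.021 with DESeq2 size factors. With GC and length removed they were 0.217, 0.23 and 0.115. The causes were not tested.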
